A study of Mus musculus with 53 samples.

Results

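Endpoint tumours of BA mice were compared with WT proximal colon across the whole transcriptome, in 7 of the 53 RNA-seq libraries of the series. The members were taken by their labels, as the 4 primary tumours of the proximal colon and the 3 samples of proximal colon tissue that were sequenced as their control. BA tumours carried VilCreER+ BrafV600E/+ Alk5fl/fl, where Alk5 is the other name of Tgfbr1, and were taken at clinical endpoint. WT tissue carried VilCreER+ alone. The Villin promoter directs CreER, a Cre recombinase that tamoxifen switches on, to the epithelium of the gut, so the activated Braf allele and the loss of the TGF-beta receptor were restricted to epithelial cells, whereas stromal and immune cells kept their own alleles. All 7 samples were of a Mixed C57BL/6J N6 background, had undergone tamoxifen induction in vivo and had received no drug. The labels number the samples but name no animal, age, sex or sequencing batch, so p-values measure the spread between these samples.

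The surface of the proximal colon is lined by colonocytes, which absorb water and salt, burn the butyrate made by bacteria and take up and detoxify bile acids and dietary compounds. Goblet, enteroendocrine and tuft cells arise from the same crypt stem cells and make mucus, hormones and alarm signals. BRAF carries growth factor signals to the kinase ERK, which switches on both growth genes and its own inhibitors, while TGF-beta receptors on epithelial cells restrain growth and receptors on fibroblasts drive matrix production.

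Between 12021486 and 29106913 reads per library were counted on genes, and 3 reads, used here as the floor, corresponded to 0.103 to 0.25 CPM, the count scaled to a common library size. Levels below are CPM normalised by the TMM method unless stated otherwise, and a gene that rose or fell by a number without a unit did so by that log2 fold change. The libraries were whole tissue, and the intestinal markers checked the label: Epcam, the adhesion molecule of epithelial cells, stood at 901, 816, 1572 and 1419 normalised CPM in tumours 1 to 4 and 1361, 1341 and 1285 in WT tissues 1 to 3. Tgfbr1, the deleted gene, was at 90.7, 91, 131 and 167 in the tumours and 49.4, 49.9 and 54.8 in WT tissue (log2 fold change 1.22, standard error 0.25, adjusted p = 0.0156), a call lost without WT 1, WT 2 or WT 3. Braf was at 48.6, 47.6, 36.8 and 42.6 in the tumours and 31, 36.2 and 32.8 in WT tissue (log2 fold change 0.4, adjusted p = 0.176). A gene count pools epithelium with stroma and the recombined allele with the intact one, so neither gene checks the genotype.

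Tumour 2 stood apart from the other libraries. Mitochondrial transcripts took 11.7% of its reads, against 2.12% to 4.75% elsewhere, and its 10 most abundant genes took 24.5%, against 11.5% to 18.8%. It held reads of both Y-linked genes and Xist, the RNA that silences one X chromosome. Summed over Ddx3y, Eif2s3y, Kdm5d and Uty, Y-linked reads were at 0.56, 110.4, 189 and 232 CPM of the library total in tumours 1 to 4 and at 0.241, 0.327 and 0.371 in WT tissue, and Xist was at 1686, 38.7, 2.17 and 2.11 CPM in the tumours and 269, 604 and 386 in WT tissue. Tumour 1 therefore shared the Y-negative, Xist-positive pattern of all 3 WT tissues and tumours 3 and 4 had the reverse, so sex and genotype can be told apart through tumour 1 alone. Transcripts of small intestinal enterocytes and Paneth cells, given below, were also highest in tumour 2. Whether its tissue or its library was mixed was not tested, so its values may not be those of a proximal colon tumour alone. For each gene list named, the count of called genes without tumour 2, or without another library, is given where it moves by more than 1.5 times.

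In a map of the libraries built from the 500 most different genes of each pair, the first dimension held 49.3% of the variance and separated every tumour from every WT tissue, with tumour 1 closest to WT. The second dimension held 20.7% and set tumour 2 apart from tumours 1, 3 and 4. The biological coefficient of variation, which measures scatter beyond counting error, was 42.4% among tumours and 29.5% among WT tissues.

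**Figure D1:**
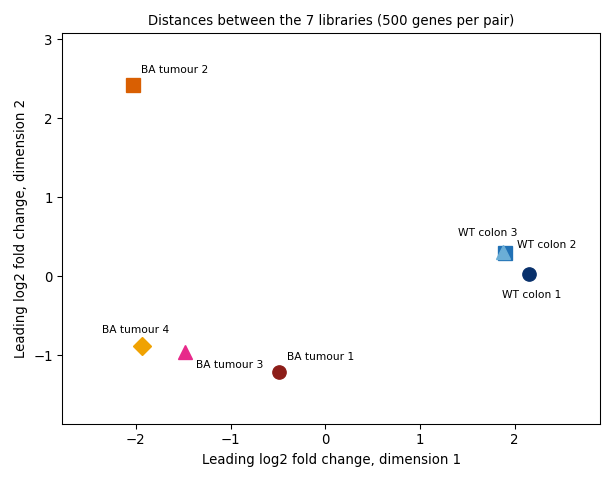
Multidimensional scaling of the 4 BA tumours and 3 WT proximal colon tissues, with leading log2 fold changes over the 500 most different genes per pair on both axes. The first dimension places tumours at -2.03 to -0.49 and WT tissues above 1.8, and the second places tumour 2 at 2.42, apart from the other tumours.

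Which genes differ between BA tumours and the tissue they arose in was the question of the comparison. Of 19188 genes with enough counts to be tested, 1431 (7.46%) passed the threshold of 0.05 on the adjusted p as increases in BA tumours and 1096 (5.71%) as decreases. Together they made 2527 (13.2%), with a median log2 fold change of 0.03 over all genes tested. Of these, 605 were more than 4-fold higher and 349 more than 4-fold lower. The groups did not overlap in 27.1% of the genes tested. The count depended on single WT tissues: without WT 1, WT 2 or WT 3 it was 696, 1829 or 1089, and without tumours 1 to 4 it was 2444, 3641, 1775 and 1380. In all 7 of these fits and in the full one, 369 genes (1.92%) stayed higher and 279 (1.45%) stayed lower, and these 648 are called stable below, a word that covers left-out libraries and not the sex of the mice. With a term for Y-linked reads, which leaves the estimate to tumour 1 against WT tissue, 147 genes were higher and 21 lower, and 2524 of the 2527 calls kept their sign. Tumour 1 and the WT tissues also entered the full fit, so the kept signs are no independent check on sex. The count of a list under this term is given as its Y-adjusted count, and where none is printed it was at most 1 in either direction. The shares over all genes tested given above are the ones to set beside each list count. A list whose share lies near them is not read as changed. In bulk tissue, fewer cells of a type and less RNA per cell cannot be told apart, and that holds for every change given here.

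The stable genes with the largest changes are described first, taken from those whose groups did not overlap. Ly6g, known as a neutrophil surface protein, was at 103, 409, 289 and 285 normalised CPM in tumours 1 to 4 and 0.42, 0.456 and 0.65 in WT tissue. The other neutrophil genes named below stood far lower in every tumour, and which cells held the Ly6g reads was not tested. Il5ra, the receptor for interleukin 5, was at 63.5, 113, 82.5 and 162 in the tumours and 0.614, 0.456 and 0.278 in WT tissue (log2 fold change 7.82, standard error 0.49, adjusted p = 0.000252). Ltbp2, a matrix protein related to the latent TGF-beta binding proteins, was at 137, 208, 179.9 and 356 in the tumours and 1.45, 1.08 and 2.13 in WT tissue (log2 fold change 7.13, standard error 0.48, adjusted p = 0.000252). In GRCm38, Ly6g lies on chromosome 15 from 75155240 to 75159126, Il5ra on chromosome 6 from 106710357 to 106749037 and Ltbp2 on chromosome 12 from 84783212 to 84876532. All 3 genes were at least 60 normalised CPM in every tumour and below 2.5 in every WT tissue. Spp1, which encodes the secreted phosphoprotein osteopontin, was at 111, 353, 282 and 1896 in the tumours and 2.33, 5.98 and 5.01 in WT tissue (log2 fold change 7.22, standard error 1.16, adjusted p = 0.00596). Msln, the mesothelial surface protein mesothelin, was at 88.9, 117, 212 and 413 in the tumours and 0.484, 4.56 and 2.09 in WT tissue (log2 fold change 6.49, standard error 0.9, adjusted p = 0.00347). Both were highest in tumour 4 and lowest in tumour 1, which still lay above every WT tissue. Spp1 shares 13.5% of its words with an overlapping predicted gene.

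Atp6v0d2, a subunit of the proton pump of osteoclasts and macrophages, and Gpnmb, a glycoprotein of lipid-laden macrophages, showed log2 fold changes of 7.54 and 5.79 (adjusted p of 0.00645 and 0.00753) and were highest in tumour 2, at 78.8 and 535. The elastase Mmp12 and the stromelysin Mmp10 rose by 5.87 and 6.15 on the log2 scale. The autophagy gene Atg9b rose evenly, at 68, 75.7, 69.3 and 103 in the tumours and 1.52, 1.03 and 1.39 in WT tissue (log2 fold change 5.89, standard error 0.29, adjusted p = 9.81e-05), and overlaps Nos3 on the other strand. Here and below, the share of a gene's 36-base words, the read length, that also occur in other genes is given for some genes. It was 6.51% for Atg9b. Nt5c1a, a cytosolic nucleotidase, Syt8, a synaptotagmin, and Igkv12-38, a light chain segment of antibodies, rose by 6.14, 5.85 and 6.43 (adjusted p of 0.000486, 0.000587 and 0.00795). Prss22, a trypsin-like protease, and Arhgap40, a GTPase activating protein, held at most 2 reads in any WT tissue, and the ratios of their pooled levels were 637 (95% counting interval 249 to 2337) and 723 (200.04 to 5967). These intervals cover counting error only.

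Among the decreases, Sult1a1, a sulfotransferase of phenols with 10.2% shared words, fell from 558, 622 and 251 normalised CPM in WT tissues to 17.8, 17.5, 18.2 and 14 in the tumours (log2 fold change -4.82, standard error 0.35, adjusted p = 0.000348). The tumours lay at least 10-fold below the lowest WT tissue. Sult1a1 lies on chromosome 7 from 126672865 to 126676432 and Selenbp1 on chromosome 3 from 94933056 to 94944758. The selenium-binding methanethiol oxidase Selenbp1 stood at 1888, 1935 and 1203 in WT tissue and 118, 31.7, 103 and 78.7 in the tumours (log2 fold change -4.34, standard error 0.49, adjusted p = 0.00188), although 56.9% of its words also occur in other genes, most in Selenbp2. Ugt2b5, a glucuronosyltransferase, and Ces1g, a carboxylesterase, fell by 4.89 and 4.33 on the log2 scale, and 51.7% of the words of Ugt2b5 are shared, most with Ugt2b38. S100g, an intracellular calcium carrier, and Slc30a10, a manganese exporter, fell by 6.56 and 4.79, with tumour 2 at 5.46 normalised CPM of Slc30a10 and the other tumours at 0.339 to 0.456. Dio1, which deiodinates thyroid hormone, Nags, which makes the activator of the urea cycle, Pbld1, with 21.4% shared words, and Sycn, a protein of secretory granules, fell by 3.79, 3.88, 3.71 and 3.65 (adjusted p of 0.00324, 0.00308, 0.00854 and 0.00239). Tnni1, a troponin of slow muscle, fell by 4.58. Car3, a carbonic anhydrase of muscle and fat, had the largest decrease, and its WT values of 2.03, 59.5 and 28.8 against 0.249, 0.214, 0.226 and 0.236 in the tumours moved with the adipocyte reads described below.

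**Figure D2:**
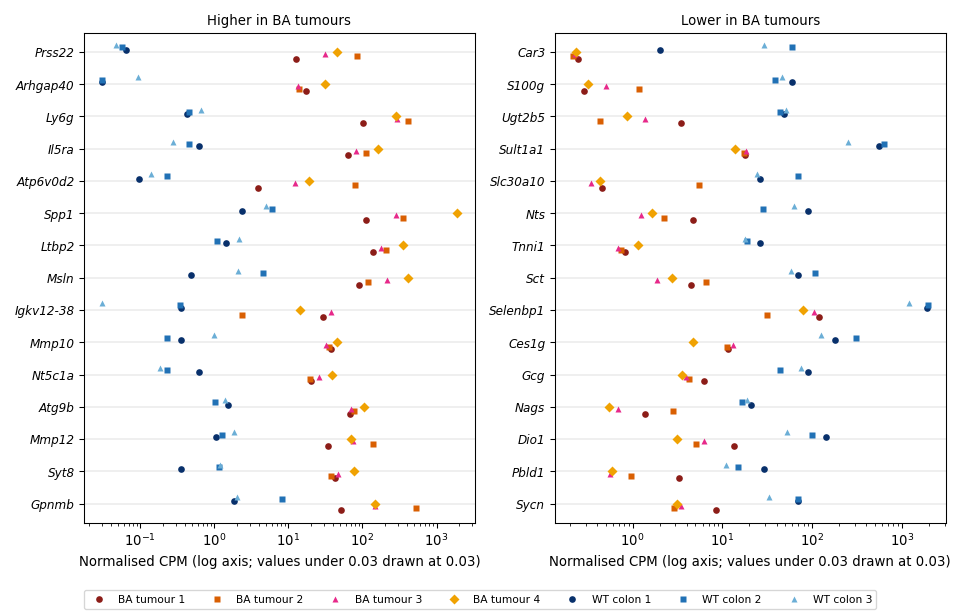
Normalised CPM on a log axis for the 15 genes with the largest increase and the 15 with the largest decrease among genes called in the full fit and in all 7 fits without 1 library. Each point is 1 library. Lack of overlap between the 4 tumours and the 3 WT tissues was required of every gene drawn.

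Salt and water transport genes of the colonocyte fell in part. Of 24 tested genes, 8 were lower and 0 higher, with a median log2 fold change of -1.22 against 0.03 over all genes, and 3 of the decreases were stable. The count was 3 without tumour 4 or WT 2, 4 without WT 1 or WT 3 and 5 without tumour 3, its Y-adjusted count was 0, and the count of higher genes was 1 without WT 2. Car4, the membrane carbonic anhydrase of the colonocyte surface, fell from 164, 116 and 64.7 normalised CPM to 25.1, 3.21, 11 and 8.37 (log2 fold change -3.26, standard error 0.59, adjusted p = 0.00949). Guca2a, the hormone guanylin that regulates fluid secretion, and Car2, a cytosolic carbonic anhydrase, fell by 2.19 and 2.03 (adjusted p of 0.00439 and 0.0111), with tumours at 383, 317, 492 and 386 and WT tissue at 2141, 1423 and 1840.4 for Guca2a. All 3 genes had lower values in every tumour than in any WT tissue.

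The chloride-bicarbonate exchanger Slc26a3 was at 52.1, 17.8, 65.9 and 40.9 in the tumours and 121, 511 and 88.7 in WT tissue. WT 2 was far above the other WT tissues, and without it the log2 fold change of -2.44 shrank to -1.26 and lost its call, as it did without tumours 1, 3 or 4 or WT 1. Car1, the most abundant carbonic anhydrase of the list, did not pass the test, at 2878, 1037, 5016 and 4062 in the tumours and 11829, 23128 and 15491 in WT tissue (log2 fold change -2.37, adjusted p = 0.0619), and neither did the water channel Aqp8, at 51.4, 3.32, 20.3 and 58.2 in the tumours and 27, 383 and 6.59 in WT tissue, where WT 2 again stood far above the rest. The bestrophin Best2 and the steroid-inactivating enzyme Hsd11b2 showed log2 fold changes of -2.88 and -1.5 and were called in 2 and 1 of the 7 fits without 1 library.

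Most genes that oxidise fatty acids and butyrate were called lower. Of 26 tested, 17 were lower and 0 higher, 9 of them stable, with a median log2 fold change of -1.15, and 21 were lower in every tumour than in every WT tissue. These made 65.4% called and 80.8% without overlap, against 5.71% called lower and 27.1% without overlap over all genes tested. The count of lower genes was 9 without WT 1 and 11 without WT 3, and the Y-adjusted count was 0. Ppara, the nuclear receptor that switches on fat oxidation, fell from 37.7, 31.2 and 37.4 normalised CPM to 12.7, 3.74, 4.75 and 2.67 (log2 fold change -2.56, standard error 0.48, adjusted p = 0.0104). Its target Pdk4, which diverts pyruvate from oxidation, fell by 2.4 on the log2 scale. Acads and Acadvl, dehydrogenases for short and very long fatty acids, Hadh, which acts at the next steps, and Bdh1, which interconverts ketone bodies, fell by 1.5, 1.65, 1.57 and 1.66 (adjusted p of 0.0087, 0.00384, 0.00248 and 0.00626). Acadvl shares 31.6% of its words with the overlapping Dvl2. Hadh was the most even of these, at 115, 115, 134 and 112 in the tumours and 384, 333 and 343 in WT tissue.

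The butyrate transporters did not pass the test. Slc5a8 was at 113, 17.7, 183 and 117 in the tumours and 115, 112 and 111 in WT tissue (log2 fold change -0.06, adjusted p = 0.955), with tumour 2 alone below the WT range, and Slc16a1 at 147, 87.9, 203 and 156 in the tumours and 166, 545 and 225 in WT tissue (log2 fold change -1.07, adjusted p = 0.138).

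The respiratory chain moved the same way with small steps. All 30 genes of oxidative phosphorylation had a negative log2 fold change, between -1.5 and -0.48 with a median of -1.17. Of these, 16 were called lower and 5 were stable, and 26 did not overlap between the groups. That was 53.3% called and 86.7% without overlap, against 5.71% called lower and 27.1% without overlap over all genes tested. The count was 5 without WT 1, 6 without tumour 4 or WT 3 and 29 without tumour 2, and the Y-adjusted count was 0. Sdhb, a subunit of complex II, was at 92.6, 157, 132 and 105 in the tumours and 356, 317 and 356 in WT tissue (log2 fold change -1.5, standard error 0.24, adjusted p = 0.0059). Ndufa9 of complex I and Uqcrc1 and Uqcrc2 of complex III fell by 1.41, 1.33 and 1.3. Uqcrc2 shares 18.3% of its words with the overlapping Pdzd9. Atp5b of the ATP synthase (log2 fold change -1.23, adjusted p = 0.0566) and Cox4i1 of complex IV (log2 fold change -1.17, adjusted p = 0.0997) missed the threshold. In tumour 2 Cox4i1 stood at 815, against 254.7 to 398 in the other tumours and 920.4 to 1152 in WT tissue.

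Of the 42 lists, detoxification held the most stable decreases. Of 30 tested genes, 16 were lower, 12 of them stable, and 1 was higher, with a median log2 fold change of -1.48. The Y-adjusted counts were 2 lower and 0 higher, and the count of higher genes was 0 without tumour 3 or tumour 4 or WT 1 or WT 3 and 2 without tumour 1. Beside Sult1a1, the sulfotransferase Sult1c2 and the deacetylase Aadac fell by 3.65 and 3.48. Gstm3, a glutathione transferase, fell from 29.7, 43.3 and 28.5 normalised CPM to 4.93, 3, 2.94 and 2.99 (log2 fold change -3.28, standard error 0.28, adjusted p = 0.000587), and 35.3% of its words are shared with other genes. Aldh1a1, which makes retinoic acid, was at 55.3, 24.6, 150.0 and 75.5 in the tumours and 622, 479 and 531 in WT tissue (log2 fold change -2.83, standard error 0.51, adjusted p = 0.00949), with every tumour at least 3-fold below the lowest WT tissue. The esterase Ces1f fell by 2.54. Cyp2c55, the cytochrome P450 with the highest levels of the list in WT tissue and named after its values were seen, went from 2650.1, 3794 and 1869 to 393, 21.8, 51.9 and 83.7 (log2 fold change -4.33, standard error 0.92, adjusted p = 0.0171), and its call was lost without tumour 4 or WT 1. Nr1i2, the receptor PXR that senses foreign compounds, did not pass the test at 55.3, 25.9, 71.5 and 63.7 in the tumours and 82, 74.2 and 63.4 in WT tissue (log2 fold change -0.43, adjusted p = 0.408).

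Of 11 bile acid genes, 3 were lower and 0 higher. Slc51a and Slc51b, the subunits of the transporter that passes bile acids to the blood, were both stable. Slc51a fell from 108, 91.1 and 83.2 to 14.2, 11.3, 10.9 and 9.04 normalised CPM (log2 fold change -3.05, standard error 0.21, adjusted p = 0.000252) and Slc51b by 2.32, and Slc51a shares 16.7% of its words with the overlapping Pcyt1a. Their regulator Nr1h4, the bile acid receptor FXR, stood at 51.9, 62.5, 109 and 73.8 in the tumours and 129.96, 92.1 and 107 in WT tissue (log2 fold change -0.56, adjusted p = 0.205). The ileal bile acid carrier Fabp6 was at 0.415, 1.6, 0.509 and 0.157 in the tumours and 44.7, 0.684 and 43 in WT tissue, where WT 2 lay within the range of the tumours, and its call was lost without WT 1 or WT 3.

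Of 14 pan-epithelial markers, 0 were lower and 1, the keratin Krt18, was higher (log2 fold change 1.6, adjusted p = 0.0468), a call lost without tumour 3, tumour 4, WT 1, WT 2 or WT 3, with a median log2 fold change of -0.06. The count of higher markers was 0 without tumour 3 or tumour 4 or WT 1 or WT 2 or WT 3 and 2 without tumour 2. The 7.14% called lay near the 7.46% of all genes tested that were called higher. The mean log2 CPM of the list was 9.22, 9.36, 9.78 and 9.75 in the tumours and 9.29, 9.52 and 9.5 in WT tissue, with overlapping ranges. Of 19 transcription factors of intestinal identity, 2 were higher and 0 lower, and the count of higher genes was 0 without WT 1 or WT 3 and 1 without tumour 3 or WT 2. Lower ones numbered 1 without WT 2 and 2 without tumour 1 or tumour 2. Cdx2, which specifies intestine, was at 180.5, 99.4, 274 and 229 normalised CPM in the tumours and 378, 342 and 351 in WT tissue (log2 fold change -0.87, adjusted p = 0.117), with no overlap but no call, and Hnf4a, which drives enterocyte genes, at 532, 257, 615 and 600.1 in the tumours and 481, 700.3 and 508 in WT tissue (log2 fold change -0.17, adjusted p = 0.803). Tumour 2 was lowest for both. Creb3l3, a regulator of lipid genes, and Pdx1, a factor of duodenum and pancreas, showed log2 fold changes of 2.06 and 2.71 (adjusted p of 0.0119 and 0.029), both lost without WT 1 or WT 3 and Pdx1 also without tumour 3 or WT 2. Of 17 tight junction genes, 1 was lower, the cation pore Cldn15, at 76.3, 57.8, 73.1 and 44.7 in the tumours and 227, 159 and 212 in WT tissue (log2 fold change -1.66, standard error 0.24, adjusted p = 0.00403). Lower genes of this list numbered 2 without tumour 1 or tumour 2, and higher ones 1 without tumour 2. The 5.88% called lay near the 5.71% of all genes tested that were called lower. The barrier claudins Cldn4 (log2 fold change 1.11, adjusted p = 0.135) and Cldn8 (log2 fold change -3.09, adjusted p = 0.0621) missed the threshold.

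**Figure D3:**
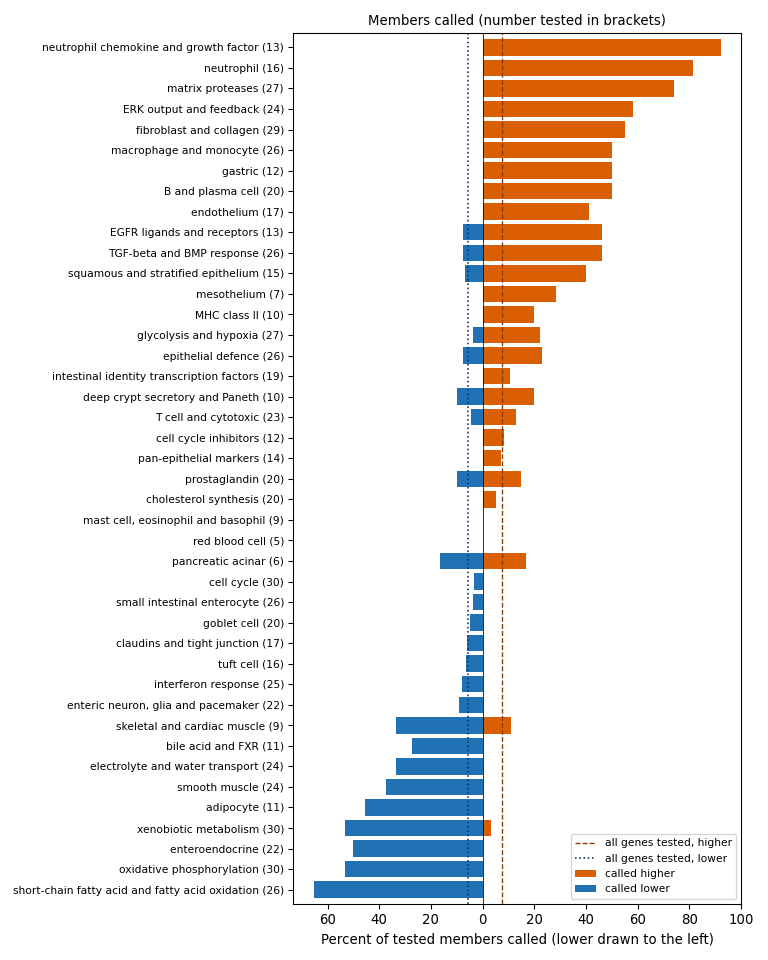
Percent of the members that passed the count filter in each of 42 gene lists that passed the threshold as increases (right) or decreases (left) in BA tumours. Dashed and dotted lines give the 7.46% and 5.71% of all 19188 genes tested that were called higher and lower, and the longest bars belong to neutrophil chemokines, neutrophil genes and matrix proteases on the right and to fatty acid oxidation on the left. Of 20 chemokines 13 and of 22 neutrophil genes 16 were tested. Those close to 0 in WT tissue passed the filter through the tumours, so these bars describe the genes that passed and do not rank the lists.

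Among the secretory lineages, hormone-producing cells had the most genes called. Of 22 enteroendocrine genes tested, 11 were lower and 0 higher, 6 of them stable, with a median log2 fold change of -1.99 and all 22 log2 fold changes below 0. The count was 6 without WT 1, and the Y-adjusted count was 1. Gcg, which encodes glucagon-like peptides, fell from 89.4, 44 and 75.4 normalised CPM to 6.22, 4.28, 3.9 and 3.54 (log2 fold change -3.95, standard error 0.31, adjusted p = 0.000457), and Sct, the hormone secretin, from 69, 107 and 57.6 to 4.44, 6.63, 1.87 and 2.71 (log2 fold change -4.34, standard error 0.43, adjusted p = 0.00111). Neurotensin (Nts), Pyy and Scgn, a calcium sensor of hormone cells, fell by 4.59, 2.33 and 3.22 (adjusted p of 0.00207, 0.00454 and 0.00949). Insl5, a hormone of the distal colon, held at most 2 reads in any tumour, and its pooled level was 53.6 times lower (95% counting interval 20.9 to 197). Chga, the granule protein chromogranin A, was named after its values were seen, at 24.9, 4.17, 11.7 and 11.9 in the tumours and 184, 47.6 and 108 in WT tissue (log2 fold change -3.09, standard error 0.58, adjusted p = 0.0108), lost without WT 1. Neurog3, the factor that starts the lineage, was at 0.29, 0.642, 0.736 and 0.314 in the tumours and 1.16, 1.03 and 1.16 in WT tissue (log2 fold change -1.22, adjusted p = 0.116), with no overlap but no call.

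Of 20 goblet genes, 1 was lower, the kallikrein Klk1, at 244, 65.4, 134 and 83.7 in the tumours and 1555, 295 and 1269 in WT tissue, with 35.5% of its words in other genes and a call lost without tumour 4, WT 1 or WT 3. The count of lower goblet genes was 0 without tumour 4 or WT 1 or WT 3, 2 without tumour 1, 4 without WT 2 and 5 without tumour 2. The 5% called in the full fit lay near the 5.71% of all genes tested that were called lower. Muc2, the gel-forming mucin, was at 18219, 5606, 2992 and 2993 in the tumours and 12696, 4291 and 21444 in WT tissue (log2 fold change -0.78, adjusted p = 0.619), so tumour 1 lay near the 2 higher WT tissues and WT 2 among the other tumours. Atoh1, the factor that selects the secretory fate, was at 44.1, 6.1, 32.8 and 21.1 in the tumours and 142, 48.2 and 110.4 in WT tissue (log2 fold change -1.94, adjusted p = 0.0559), below every WT tissue in every tumour but without a call. Of 16 tuft genes, 1, Rgs13, was lower (log2 fold change -2.36, adjusted p = 0.0349), with tumour 1 within the WT range and the call lost without tumour 3, tumour 4, WT 1 or WT 3, and Pou2f3, the tuft cell factor, missed the threshold (log2 fold change -1.66, adjusted p = 0.088). The count of lower tuft genes was 0 without tumour 3 or tumour 4 or WT 1 or WT 3, 2 without WT 2 and 3 without tumour 1.

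Of 10 tested genes of deep crypt and Paneth cells, 2 were higher and 1 lower. Higher ones numbered 1 without WT 1 or WT 3, and lower ones 2 without tumour 1 and 3 without WT 2. Mptx1, a pentraxin of Paneth-like cells, held at most 2 reads in any tumour and was 57.2 times lower in pooled level (95% counting interval 19.6 to 277), although 23% of its words are shared. Pla2g2a, the gene of a secreted phospholipase, was at 8.04, 26.4, 21.7 and 5.7 in the tumours and 1.49, 0.456 and 0.835 in WT tissue (log2 fold change 4.01, standard error 0.68, adjusted p = 0.00726) and was stable. The gene annotation classes Pla2g2a as a polymorphic pseudogene, and whether its reads stand for a working enzyme was not tested. Mmp7, matrilysin, was at 7.09, 119.6, 115 and 56.5 in the tumours and 3.88, 0.57 and 2.69 in WT tissue (log2 fold change 4.93, standard error 1, adjusted p = 0.0142), its call lost without WT 1 or WT 3, with tumour 1 far below the other tumours. Reg4 was at 145, 769, 70.3 and 41.3 in the tumours and 56.2, 1338 and 43.6 in WT tissue, where WT 2 and tumour 2 held most of the reads.

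Of 22 gastric genes, 10 had too few counts to be tested, 6 were called higher and 0 lower, and 4 of the increases were stable. Genes close to 0 in WT tissue reached the count filter through the tumours alone, so these counts describe the genes that passed and not the list. The Y-adjusted count of higher genes was 3. Vsig1, a junction protein of the stomach, was at 12.8, 19.4, 27.9 and 18.9 normalised CPM in the tumours and 0.0646, 1.48 and 0.139 in WT tissue (log2 fold change 5.25, standard error 0.88, adjusted p = 0.0072). Anxa10, an annexin of gastric epithelium, was at 4.06, 12.4, 4.3 and 2.2 in the tumours, while WT tissues held 1 read each, a ratio of pooled levels of 105 (95% counting interval 36.1 to 512). Aqp5, a water channel of pyloric glands, and Foxq1, a factor of the gastric pit, rose by 5.21 and 3.61 (adjusted p of 0.00239 and 0.00248), although 65.8% of the words of Foxq1 lie in an antisense gene. Onecut2 rose by 6.18, lost without WT 1, and the stem cell antigen Psca, at 0.0415, 2.46, 1.02 and 2.28 in the tumours and 0 reads in WT tissue, was at least 33.9-fold higher against a floor of 3 reads over the WT group, but its call held without tumour 1 alone.

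The defining products of the stomach stayed low. The pit mucus peptide Tff1 was at 0.622, 0.535, 1.41 and 0.314 normalised CPM and Gkn1, gastrokine, at 0.953, 1.07, 0.396 and 0.275 in the tumours, against 0 reads of either in WT tissue, and both failed the low-count filter and were named after their values were seen. Muc6, the mucin of deep gastric glands, was at 3.81, 3.32, 1.75 and 1.49 in the tumours and 0.614, 0.798 and 1.16 in WT tissue (log2 fold change 1.59, adjusted p = 0.0586). The protease Ctse was at 5.47, 3.1, 8.26 and 2.91 in the tumours and 2.58, 1.08 and 1.53 in WT tissue (log2 fold change 1.5, adjusted p = 0.0767). Both were above every WT tissue in every tumour without passing the threshold.

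Stratified epithelium was represented by low levels of a few keratins. Of 30 genes 15 could be tested, 6 were higher and 1 lower, and the count of higher genes was 2 without WT 1 or WT 3. The Y-adjusted counts were 2 higher and 0 lower. The same limit of the count filter holds for this list. Krt4 and Krt13, the keratin pair of mucosal squamous epithelium, rose and were stable. Krt4 was at 5.02, 5.03, 6.62 and 3.85 in the tumours and 0.323, 0.057 and 0.325 in WT tissue (log2 fold change 4.35, standard error 0.53, adjusted p = 0.00239), and Krt13 at 1.82, 1.5, 1.24 and 1.14 and, in WT tissue, 0.129, 0.057 and 0.0464 (log2 fold change 4.01, standard error 0.54, adjusted p = 0.00314). The cell junction cadherin Dsg3 and the crosslinking enzyme Tgm1 rose by 2.71 and 2.55 and lost their calls without WT 1 or WT 3, and Krt23 rose by 2.65 and lost its call without tumour 3, tumour 4, WT 1 or WT 3. Tgm3 was lower, with at most 3 reads in any tumour, at a pooled ratio of 14.4 (95% counting interval 6.97 to 35.7). The basal keratin Krt14 was at 1.82, 0.535, 0.849 and 0.314 in the tumours and 0.355, 0.513 and 0.882 in WT tissue (log2 fold change 0.63, adjusted p = 0.573), and Krt5, named after its values were seen, held between 1 and 6 reads in every library and was not tested.

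Of 24 genes of ERK output and feedback, 14 were higher and 0 lower, 7 of them stable, with a median log2 fold change of 1.55, and the count was 7 without WT 1 or WT 3. Lower ones numbered 1 without tumour 2, and the Y-adjusted count of higher genes was 3. Dusp4 and Dusp6, phosphatases that switch ERK off again, rose and were stable. Dusp4 was at 22.8, 34.9, 31.3 and 42.1 normalised CPM in the tumours and 2.97, 2.56 and 5.71 in WT tissue (log2 fold change 3.13, standard error 0.36, adjusted p = 0.00197). For Dusp6 the tumours were at 131, 94.4, 173 and 230.4 and WT tissue at 31, 34.2 and 32.8 (log2 fold change 2.27, standard error 0.31, adjusted p = 0.00329). Spry4, another feedback inhibitor, and Epha2, a receptor kinase, rose by 2.13 and 2.62. The cytokine Lif was at 11.4, 16.2, 13.8 and 23.5 in the tumours and 1.32, 1.6 and 2 in WT tissue (log2 fold change 3.31, standard error 0.34, adjusted p = 0.00128). In these genes every tumour lay above every WT tissue. Fosl1, a component of the AP-1 factor, was at 1.53, 1.39, 0.566 and 1.34 in the tumours and 0.0646, 0.513 and 0.65 in WT tissue (log2 fold change 1.6, adjusted p = 0.169), and 54% of its words lie in the antisense gene Ccdc85b.

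Among ligands and receptors of the EGF family, 6 of 13 were higher and 1 lower. The count of higher genes was 3 without WT 1 and that of lower genes 0 without tumour 2 or tumour 3 or tumour 4 or WT 1 or WT 3. The Y-adjusted counts were 1 higher and 0 lower. Areg, amphiregulin, was at 29.5, 87, 48.4 and 65.4 in the tumours and 4, 13.8 and 7.66 in WT tissue (log2 fold change 2.77, standard error 0.49, adjusted p = 0.00892). Ereg, epiregulin, was at 37.6, 29.6, 36.2 and 38.1 in the tumours and 6.2, 10.7 and 8.08 in WT tissue (log2 fold change 2.09, standard error 0.24, adjusted p = 0.002), and Btc, betacellulin, rose by 2.12 (adjusted p = 0.00535). All 3 were stable. Hbegf and the receptor Egfr rose by 1.76 and 1.27, Hbegf losing its call without WT 1 or WT 3 and Egfr without WT 1. Egf itself was lower (log2 fold change -1.42, adjusted p = 0.0437), lost without tumour 2, tumour 3, tumour 4, WT 1 or WT 3. Tgfa was at 39.1, 47.5, 47.3 and 56.1 in the tumours and 28.4, 50.03 and 33.3 in WT tissue (log2 fold change 0.35, adjusted p = 0.37).

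Of 26 genes that respond to or modulate TGF-beta and BMP, 12 were higher and 2 lower, 7 of the increases stable, and the count of higher genes was 7 without WT 1. Lower genes numbered 0 without WT 1, 1 without tumour 4 or WT 3 and 5 without tumour 2. The Y-adjusted counts were 4 higher and 0 lower. Grem1, a BMP antagonist made by stromal cells, was at 215, 353, 335 and 323 in the tumours and 21.4, 32.7 and 10.1 in WT tissue (log2 fold change 3.84, standard error 0.43, adjusted p = 0.00186). Inhba and Inhbb, the subunits of activins, and Fst, their antagonist follistatin, rose by 3.36, 3.44 and 2.33 (adjusted p of 0.00454, 0.00104 and 0.00312). The inhibitory Smad7, at 53.9, 32.7, 50.3 and 55.8 in the tumours and 31.3, 53.2 and 36.6 in WT tissue (log2 fold change 0.26, adjusted p = 0.56), and the BMP target Id1, at 44.1, 99.8, 78.8 and 60.4 in the tumours and 103, 128 and 119.8 in WT tissue (log2 fold change -0.72, adjusted p = 0.115), did not pass the test.

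No cell cycle gene was called higher. Of 30 cell cycle genes, 0 were higher and 1, the nucleotide enzyme Tyms, was lower (log2 fold change -0.79, adjusted p = 0.0486) in the full fit and in that without tumour 2 alone, with a median log2 fold change of -0.33. The count of lower genes was 0 without tumour 1 or tumour 4 or WT 1 or WT 2 or WT 3, and without tumour 3 the gene called was Ccnb2, a mitotic cyclin named after this was seen. Mki67 was at 244, 153, 190.01 and 155 in the tumours and 126, 238 and 308 in WT tissue (log2 fold change -0.27, adjusted p = 0.632). Top2a was at 135, 93, 178 and 115 in the tumours and 122, 132 and 238 in WT tissue (log2 fold change -0.33, adjusted p = 0.53). The groups overlapped for both genes. Of 12 cell cycle inhibitors, 1 was higher and stable, and lower ones numbered 1 without tumour 3. The gene that rose, Cdkn2a (ENSMUSG00000044303, chromosome 4 from 89274471 to 89294653 of GRCm38), which encodes p16 and p19, was at 2.65, 9.52, 6.11 and 7.39 in the tumours and 0.0646, 0.057 and 0.186 in WT tissue (log2 fold change 5.9, standard error 0.66, adjusted p = 0.00186), where WT tissues held 1 to 4 reads each. Every tumour lay more than 10-fold above every WT tissue, and with each library left out the log2 fold change stayed within 5.59 to 6.56. Cdkn1a, the inhibitor p21, was at 39, 73.5, 31.1 and 40.4 in the tumours and 32.2, 49.6 and 34.1 in WT tissue (log2 fold change 0.25, adjusted p = 0.648). Trp53 was at 23.8, 29.6, 19 and 22.9 in the tumours and 14.9, 20.6 and 18.3 in WT tissue (log2 fold change 0.41, adjusted p = 0.256).

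Of 27 genes of glycolysis and hypoxia, 6 were higher and 1 lower, with a median of 0.03, against 0.03 over all genes. The count of higher genes was 2 without WT 1 or WT 3, and that of lower genes 2 without WT 2 and 3 without tumour 2. The Y-adjusted counts were 1 higher and 0 lower. Hif1a, the hypoxia factor, was at 196, 316, 278 and 209.7 in the tumours and 41.3, 76.7 and 42.3 in WT tissue (log2 fold change 2.23, standard error 0.31, adjusted p = 0.00366). Slc16a3, the lactate exporter, was at 31.7, 33.9, 29.7 and 25.5 in the tumours and 5.33, 8.83 and 6.5 in WT tissue (log2 fold change 2.14, standard error 0.24, adjusted p = 0.00179). Ankrd37, a hypoxia-induced gene, fell by 2.13 (adjusted p = 0.00324), with 20.1% of its words shared, most with the overlapping Lrp2bp. Ldha missed the threshold (log2 fold change -0.26, adjusted p = 0.623). Pfkfb3 rose by 2.15, or by 1.35 without tumour 2, the hexokinase Hk3 by 1.86, or by 1.21 without tumour 2, and Hk2 by 1.21. Pfkfb3 lost its call without WT 1, WT 2 or WT 3, Hk3 without tumour 3, tumour 4, WT 1, WT 2 or WT 3 and Hk2 without tumour 3, WT 1 or WT 3.

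Prostaglandin metabolism showed one large decrease. Hpgd, which inactivates prostaglandins, fell from 393, 187 and 239 normalised CPM to 50.9, 29.3, 70.8 and 82.8 (log2 fold change -2.22, standard error 0.38, adjusted p = 0.00794). Abcc4, which exports them, was at 48.3, 57.7, 48 and 64.4 in the tumours and 14, 21.1 and 19.4 in WT tissue (log2 fold change 1.59, standard error 0.22, adjusted p = 0.00332). Both were stable, as was the decrease of the synthase Ptges2 by 1. The inducible cyclooxygenase Ptgs2 was at 24.8, 10.8, 12 and 19.7 in the tumours and 5.33, 8.89 and 4.92 in WT tissue (log2 fold change 1.41, adjusted p = 0.0363), lost without tumour 1, tumour 4, WT 1 or WT 3. Ptgs1 was at 36.7, 39.7, 60.8 and 48.9 in the tumours and 38, 43.3 and 25.4 in WT tissue (log2 fold change 0.39, adjusted p = 0.36). In all, 3 of 20 genes were higher and 2 lower, and the count of higher genes was 1 without tumour 4 or WT 1 or WT 3. The Y-adjusted counts were 0 higher and 0 lower.

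Matrix proteases and their inhibitors had the most stable increases of all lists. Of 27 genes, 20 were higher and 0 lower, 12 of them stable, with a median log2 fold change of 2.97, and the count was 12 without WT 1 and 13 without WT 3, with a Y-adjusted count of 6. Mmp10 was at 37, 34.9, 32.1 and 45 normalised CPM in the tumours and 0.355, 0.228 and 0.975 in WT tissue (log2 fold change 6.15, standard error 0.46, adjusted p = 0.000422). Mmp12 was at 34, 141, 74.5 and 69.6 in the tumours and 1.03, 1.25 and 1.81 in WT tissue (log2 fold change 5.87, standard error 0.54, adjusted p = 0.000949). Mmp3 was at 22, 26.4, 29 and 12.6 in the tumours and 0.549, 1.08 and 0.186 in WT tissue (log2 fold change 5.24, standard error 0.57, adjusted p = 0.00156). In all 3 the lowest tumour was more than 10-fold above the highest WT tissue. Mmp3 and Mmp10 share 12.3% and 10.8% of their words with other genes, most with each other. Timp1, an inhibitor of these enzymes, and Serpine2, an inhibitor of serine proteases, rose by 4.45 and 4.14 (adjusted p of 0.000981 and 0.00455), with tumour 4 highest for Serpine2 at 349 against 68.8 to 112 in the other tumours. Plau, urokinase, was at 28.6, 10.8, 26 and 26.1 in the tumours and 16.4, 29.6 and 16 in WT tissue (log2 fold change 0.16, adjusted p = 0.821). Mmp9, a gelatinase of neutrophils, was at 13.6, 16, 15.4 and 23.5 in the tumours and 10.3, 9.46 and 4.59 in WT tissue (log2 fold change 1.08, adjusted p = 0.0628).

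Mmp10, Mmp12, Mmp3, Mmp7 and Mmp13 lie in 1 cluster on chromosome 9, and the stretch before each of their starts is shown because all 5 hold the same motif close to the start. In the RefSeq promoters of GRCm38.p6, the AP-1 motif TGANTCA, which is its own reverse complement apart from the middle base, was searched on both strands in the 250 bases before the start. It was found in 6 of the 15 matrix protease genes called higher that had a promoter in the table (40%), in 7 of the 20 tested ones (35%), in 766 of 12388 tested genes (6.18%) and in 2217 of all 32851 promoters (6.75%). Among stable genes it was in 39 of 240 higher (16.2%) and 20 of 225 lower ones (8.89%). The letters GGAATG of TEAD, CAAAGTCCA of HNF4 and CCGGAAGT of ETS were searched the same way and found in 12.5%, 1.25% and 0% of the stable higher genes, 13.3%, 0.444% and 2.67% of the stable lower genes and 13.2%, 0.484% and 5.84% of all tested genes. The proteases share a cluster and ancestry and are not independent, and a match is a description of letters. The sequences below read 5′ to 3′ on the plus strand up to the start or to 40 bases past the motif, which stands in capitals.
Mmp10 (chr9:7502239-7502325): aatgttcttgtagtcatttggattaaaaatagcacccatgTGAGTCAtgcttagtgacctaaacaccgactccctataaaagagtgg
Mmp12 (chr9:7347290-7347373): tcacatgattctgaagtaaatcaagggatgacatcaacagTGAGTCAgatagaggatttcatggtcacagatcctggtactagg
Mmp3 (chr9:7445736-7445821): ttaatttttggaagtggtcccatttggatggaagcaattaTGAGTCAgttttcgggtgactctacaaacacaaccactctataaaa
Mmp7 (chr9:7691987-7692073): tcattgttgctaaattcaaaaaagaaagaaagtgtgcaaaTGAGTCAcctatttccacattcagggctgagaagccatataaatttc
Mmp13 (chr9:7272439-7272513): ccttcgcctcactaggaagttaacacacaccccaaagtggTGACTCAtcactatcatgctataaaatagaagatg

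The motif began 63, 44, 46, 63 and 35 bases before the start in Mmp10, Mmp12, Mmp3, Mmp7 and Mmp13. Outside the cluster it stood 69 bases before the start of Plaur, the urokinase receptor. Some genes outside the list were also searched, chosen by name. It stood 98 bases before the start of Il11, a cytokine described below, and 228 bases before that of Lif. In Krt13 it stood 34, 183 and 196 bases before a start. Areg, Ereg, Dusp4, Dusp6, Prss22 and Krt4 gave no match or had no promoter listed.

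Of 29 fibroblast and collagen genes, 16 were higher and 0 lower, 9 of them stable, with a median log2 fold change of 1.51, and the count was 9 without WT 1. Lower ones numbered 1 without tumour 2, and the Y-adjusted count of higher genes was 2. Lox, which crosslinks collagen, was at 79.3, 181, 163 and 213 in the tumours and 8.07, 7.75 and 10.2 in WT tissue (log2 fold change 4.19, standard error 0.37, adjusted p = 0.000747). Col4a1 and Col4a2, the head-to-head pair of basement membrane collagens, rose by 2.28 and 2.38. Col4a1 was at 1087, 974, 1297 and 1584 in the tumours and 192, 327 and 247 in WT tissue. Col12a1, Col5a2 and the pericyte receptor Pdgfrb rose by 2.63, 2.55 and 2.11. Pdgfra, the receptor that marks resident fibroblasts, was at 139.7, 170.2, 93.6 and 69.5 in the tumours and 97.6, 128 and 98.3 in WT tissue (log2 fold change 0.13, adjusted p = 0.822), with overlapping ranges.

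Of 17 endothelial genes, 7 were higher and 0 lower, 3 of them stable, with a median of 1.16, and the count was 3 without WT 1, 4 without WT 3 and 12 without tumour 2, with a Y-adjusted count of 1. Cdh5, the cadherin of vessel walls, was at 25.5, 20.9, 19.2 and 37 in the tumours and 4.49, 8.21 and 5.34 in WT tissue (log2 fold change 2.1, standard error 0.32, adjusted p = 0.005), and Eng and Flt1, receptors for TGF-beta and VEGF family ligands, rose by 1.56 and 1.53. Selp, the selectin that captures leukocytes, rose by 2.54 and lost its call without WT 1 or WT 3, Vwf rose by 1.53, lost without WT 1, and the VEGF receptor Kdr was at 37.9, 9.84, 29.4 and 38 in the tumours and 14.1, 17.9 and 18.3 in WT tissue (log2 fold change 0.78, adjusted p = 0.245), with tumour 2 below the WT range. The lymphatic marker Lyve1 was at 10.1, 15.8, 14.4 and 6.72 in the tumours and 15.5, 23.8 and 11.5 in WT tissue (log2 fold change -0.53, adjusted p = 0.361).

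Of 24 smooth muscle genes, 9 were lower and 0 higher, with a median of -1.13, none in all 7 fits, and the count was 0 without tumour 4 or WT 1 or WT 2, 3 without tumour 1 and 4 without tumour 3. The Y-adjusted count was 0. Myh11, the smooth muscle myosin, was at 647, 440.3, 829.6 and 336 in the tumours and 2151, 3409 and 837 in WT tissue (log2 fold change -1.92, adjusted p = 0.0427). Acta2 was at 358, 359.7, 625 and 342 in the tumours and 1428, 1890.2 and 551 in WT tissue (log2 fold change -1.61, adjusted p = 0.045), where WT 3 lay within the range of the tumours. Smtn, Myl9, Tpm2 and Casq2 showed log2 fold changes of -1.83, -1.75, -1.77 and -1.68, called in 4, 3, 3 and 2 of the 7 fits. The mean log2 CPM of the list was 6.33, 6.23, 6.7 and 6 in the tumours and 7.44, 7.93 and 6.35 in WT tissue, where WT 3 lay within the tumour range. Of 22 genes of enteric neurons, glia and pacemaker cells, 2 were lower, S100b, a glial calcium-binding protein (log2 fold change -1.62, adjusted p = 0.0296), and Stmn2, a neuronal microtubule regulator (log2 fold change -1.61, adjusted p = 0.0442). The count was 0 without tumour 4 or WT 1 and 1 without tumour 3 or WT 2 or WT 3, and that of higher genes 1 without tumour 2. Stmn2 lost its call in each fit without 1 library, down to -0.98 without WT 1.

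Of 17 genes of skeletal and cardiac muscle, 8 had too few counts to be tested, 3 were lower and 1 higher, all 4 stable. Genes close to 0 in one group passed the count filter through the other, so these counts describe the genes that passed. The Y-adjusted counts were 1 lower and 0 higher. Beside Tnni1, the creatine kinase Ckm fell from 37.1, 42.3 and 12 to 2.78, 3, 4.81 and 1.02 (log2 fold change -3.4, standard error 0.55, adjusted p = 0.00626) and the actin Actc1 from 6.2, 5.53 and 6.92 to 0.746, 0.321, 0.622 and 0.0786 (log2 fold change -3.78, standard error 0.58, adjusted p = 0.00493), while the fast troponin Tnni2 was at 3.77, 4.39, 3.68 and 6.45 in the tumours and 0.743, 0.399 and 0.371 in WT tissue (log2 fold change 3.14, standard error 0.43, adjusted p = 0.00329).

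Adipocyte reads were present in 2 of the 3 WT tissues. Adipoq, the hormone adiponectin, held 0 reads in every tumour and was at 0.0646, 9.52 and 4.87 in WT tissue. Cfd, adipsin, was at 0, 0.214, 0 and 0.118 in the tumours and 0.161, 37.2 and 20.1 in WT tissue. Both failed the low-count filter and were named after their values were seen. Of 18 adipocyte genes, 7 had too few counts to be tested, 5 were lower and 0 higher. The limit of the count filter given for the muscle genes holds for this list too. Car3, in this list too, followed the same order in WT tissue, and Plin4, a coat protein of lipid droplets, fell from 52.9, 86.7 and 28 to 15.1, 8.99, 14.2 and 8.49 (log2 fold change -2.25, standard error 0.38, adjusted p = 0.00711). The count was 2 without tumour 4 or WT 3, 3 without tumour 3 or WT 2 and 8 without tumour 2, with a Y-adjusted count of 0. The part of these reads in the decrease of Car3 was not tested. In WT 1, where Adipoq held 2 reads, Car3 was still above every tumour. Of 7 mesothelial genes, 2 were higher, Msln and Igfbp5. None was lower, or 2 without tumour 2 or WT 1. Igfbp5, a binding protein of insulin-like growth factors, was at 618, 1509.7, 711 and 413 in the tumours and 42.7, 102 and 50.03 in WT tissue (log2 fold change 3.65, standard error 0.56, adjusted p = 0.00515), while Upk3b, a membrane marker of mesothelium, was at 0.58, 1.18, 0.226 and 0.236 in the tumours and 0.388, 7.12 and 3.02 in WT tissue (log2 fold change -2.75, adjusted p = 0.0779).

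Of 22 neutrophil genes, 6 had too few counts to be tested, 13 were called higher and 0 lower, and 4 of the increases were stable. The count was 4 without WT 1 or WT 3 and 8 without WT 2, and the Y-adjusted count was 1. Here and among the chemokines, genes close to 0 in WT tissue passed the count filter through the tumours. Csf3r, the receptor for the growth factor G-CSF, was at 8.91, 13.7, 8.32 and 10.3 in the tumours and 0.937, 2.68 and 1.53 in WT tissue (log2 fold change 2.6, standard error 0.41, adjusted p = 0.00559). Csf3r shares 19.2% of its words. Trem1, an amplifying receptor, was at 1.58, 6.85, 2.83 and 5.11 in the tumours and 0.0323, 0.114 and 0.232 in WT tissue (log2 fold change 5.01, standard error 0.78, adjusted p = 0.00517). The chemokine receptor Cxcr2 was at 0.83, 0.856, 2.26 and 2.32 in the tumours and held 3 reads over the WT tissues, all in WT 1, a ratio of pooled levels of 38.7 (95% counting interval 13.3 to 188). Its fitted log2 fold change of 5.1 became 7.94 without WT 1. S100a9, a calgranulin, was at 2.03, 28.8, 8.49 and 9.79 in the tumours and 0.581, 0.627 and 0.603 in WT tissue (log2 fold change 4.32, standard error 0.83, adjusted p = 0.012), lost without WT 1 or WT 3. The granule protein Ltf was at 0.622, 0.749, 0.849 and 0.747 in the tumours and 0.291, 0.285 and 0.325 in WT tissue (log2 fold change 1.28, adjusted p = 0.0729). Ly6g, in this list too, held 103, 409, 289 and 285 of the summed CPM of 149, 599, 361 and 375 in tumours 1 to 4.

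Of 20 neutrophil chemokines and growth factors, 7 had too few counts to be tested and 12 were called higher, 4 of them stable. The count was 4 without WT 1 and 7 without WT 3, and the Y-adjusted count was 3. Il11, a cytokine of the interleukin 6 family, was at 5.43, 5.35, 2.89 and 2.16 in the tumours and 0.161, 0.171 and 0.186 in WT tissue (log2 fold change 4.47, standard error 0.52, adjusted p = 0.00214). Tnf was at 4.06, 24, 9.73 and 15.7 in the tumours and 1.61, 0.912 and 1.21 in WT tissue (log2 fold change 3.4, standard error 0.6, adjusted p = 0.00864). Cxcl5 was at 2.98, 66.6, 11.4 and 25.1 in the tumours and 0.0323, 0.342 and 0.65 in WT tissue (log2 fold change 6.33, standard error 1.24, adjusted p = 0.0126), lost without WT 1. Csf3, the growth factor G-CSF itself, was at 0.456, 24.9, 0.226 and 0.314 in the tumours and 0.0646, 0.057 and 0.0928 in WT tissue, far highest in tumour 2, and failed the low-count filter. It was named after its values were seen. The order of the tumours was the same for Tnf and Cxcl5, with tumour 2 highest and tumour 1 lowest.

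Of 26 macrophage and monocyte genes, 13 were higher and 0 lower, 4 of them stable, with a median of 1.67, and the count was 4 without WT 1 and 5 without WT 3. Lower ones numbered 1 without tumour 2, and the Y-adjusted count of higher genes was 0. Arg1, the arginase of alternatively activated macrophages, was at 19.8, 77.9, 43.8 and 127 in the tumours and 3.2, 2.05 and 6.4 in WT tissue (log2 fold change 4.11, standard error 0.69, adjusted p = 0.00702). The lipid receptor Trem2 was at 8.54, 64.6, 19.7 and 29.4 in the tumours and 2.13, 2.22 and 2.83 in WT tissue (log2 fold change 3.66, standard error 0.64, adjusted p = 0.00855), lost without WT 1, and the integrin Itgax rose by 1.94 (adjusted p = 0.00332). Chil3, a chitinase-like protein, was at 1.95, 45.4, 25.9 and 153 in the tumours and 0.258, 0.399 and 0.464 in WT tissue (log2 fold change 7.25, adjusted p = 0.0121), lost without WT 1 or WT 3, with 37.3% of its words in other genes. Of the general markers, Adgre1, the antigen F4/80, was at 35.3, 60.1, 46.8 and 60.01 in the tumours and 28.5, 32.9 and 31.5 in WT tissue (log2 fold change 0.71, adjusted p = 0.0695). C1qa, of complement, was at 79.4, 252, 169.7 and 201 in the tumours and 83.2, 88 and 71.5 in WT tissue (log2 fold change 1.12, adjusted p = 0.0694), and neither passed the test. Whether the 2 kinds of gene differed was not tested.

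Of 20 B and plasma cell genes, 10 were higher and 0 lower, 4 of them stable, with a median of 1.36, and the count was 4 without WT 1 or WT 3 and 6 without tumour 3 or WT 2, with a Y-adjusted count of 3. Pax5, the factor that fixes B cell identity, was at 3.94, 4.07, 4.07 and 2.95 in the tumours and 0.129, 0.114 and 0.139 in WT tissue (log2 fold change 4.81, standard error 0.41, adjusted p = 0.000616). Blk and Ms4a1, a kinase and the antigen CD20, rose by 4.19 and 3.03. Every tumour was above every WT tissue in all 3 genes. Cr2, the complement receptor of follicles, rose by 3.13, lost without WT 1 or WT 3. Of the antibody products, Jchain was at 339, 374, 515 and 165 in the tumours and 569, 314 and 239 in WT tissue (log2 fold change -0.1, adjusted p = 0.905). Igha, the constant region of IgA, was at 2161, 1446, 3356 and 1199 in the tumours and 1793, 1363 and 1017 in WT tissue (log2 fold change 0.55, adjusted p = 0.493). Both missed the threshold, whereas the light chain segment Igkv12-38 rose, as given above.

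Of 23 T cell and cytotoxic genes, 3 were higher, Il7r, Ctla4 and Cd5, and 1 lower, Nkg7, against 7.46% and 5.71% of all genes tested, and none was stable. The count of higher genes was 0 without WT 1 or WT 3 and 1 without tumour 3 or WT 2 and that of lower genes 0 without tumour 1 or tumour 3 or tumour 4 or WT 1 or WT 2 or WT 3 and 2 without tumour 2. Il7r was at 7.09, 27.5, 14 and 8.76 in the tumours and 2.2, 3.08 and 1.58 in WT tissue (log2 fold change 2.64, adjusted p = 0.0127), lost without WT 1 or WT 3, and the shared T cell chain Cd3e at 1.2, 1.5, 1.36 and 0.511 in the tumours and 0.194, 1.65 and 0.371 in WT tissue (log2 fold change 0.65, adjusted p = 0.61). Of 10 MHC class II genes, 2 were higher, the modulators H2-Ob and H2-DMb2 (log2 fold changes 1.76 and 1.54, the latter with 33.4% shared words), called in 3 of the 7 fits each, and the count was 0 without tumour 3 or WT 1 or WT 3 and 1 without WT 2. The presenting chain H2-Aa was at 104, 334, 203 and 125 in the tumours and 184, 130.4 and 122 in WT tissue (log2 fold change 0.4, adjusted p = 0.566). Of 25 interferon response genes, 0 were higher and 2 lower, or 1 without tumour 1 or tumour 3 or tumour 4 or WT 1 or WT 3 and 4 without tumour 2. Irf7, the master regulator of the type I response, was stable and fell from 208, 142 and 127 to 53.9, 69.5, 52.1 and 66.4 (log2 fold change -1.39, standard error 0.23, adjusted p = 0.00626). None of 9 tested mast cell, eosinophil and basophil genes was called by edgeR, 1 by DESeq2 and 1 by limma voom, and 1 had an unadjusted p under 0.05. With 1 library left out, higher ones numbered 2 without WT 2 and lower ones 1 without tumour 1 or WT 2. The eosinophil receptor Siglecf was at 3.73, 5.56, 2.32 and 2.59 in the tumours and 4.04, 2.05 and 2 in WT tissue (log2 fold change 0.38, adjusted p = 0.618). Red blood cell genes, 5 tested and 0 called by edgeR, DESeq2 or limma voom or at an unadjusted p under 0.05, differed in level between libraries, with the globin Hbb-bs (54.1% shared words) at 44.8, 99.5, 7.98 and 10.1 in the tumours and 12.7, 6.44 and 34.9 in WT tissue.

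Of 26 epithelial defence genes, 6 were higher and 2 lower, and the count of higher genes was 3 without WT 1. Lower ones numbered 0 without WT 1 or WT 2 and 1 without tumour 1 or tumour 3 or tumour 4. The Y-adjusted counts were 2 higher and 0 lower. Duox2 and its partner Duoxa2 (41.6% of words shared with the overlapping Duoxa1), which release hydrogen peroxide into the lumen, rose by 2.34 and 2.87 (adjusted p of 0.00144 and 0.00384). Duox2 was at 299.5, 436, 403 and 459 in the tumours and 74.6, 78.4 and 83.9 in WT tissue. Tnip3, a brake on NF-kappaB, was at 22.8, 97.9, 49.96 and 63.9 in the tumours and 2.29, 2.17 and 1.95 in WT tissue (log2 fold change 4.77, standard error 0.5, adjusted p = 0.00132), and these 3 were stable. Lcn2, which starves bacteria of iron, rose by 3.01, or by 1.94 without tumour 2, and lost its call without tumour 3, WT 1, WT 2 or WT 3. The antibacterial lectins Reg3b and Reg3g ran from 95.5 to 4356 and from 51 to 2896 over the tumours and from 3.76 to 510.4 and 4.79 to 136 over WT tissue, and neither passed the test. Gsdmc4, a pore-forming protein with 47.5% shared words, fell by 3.38. Without WT 2 its log2 fold change was -1.98 and it was not called, and the call was also lost without tumour 3 or WT 1.

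**Figure D4:**
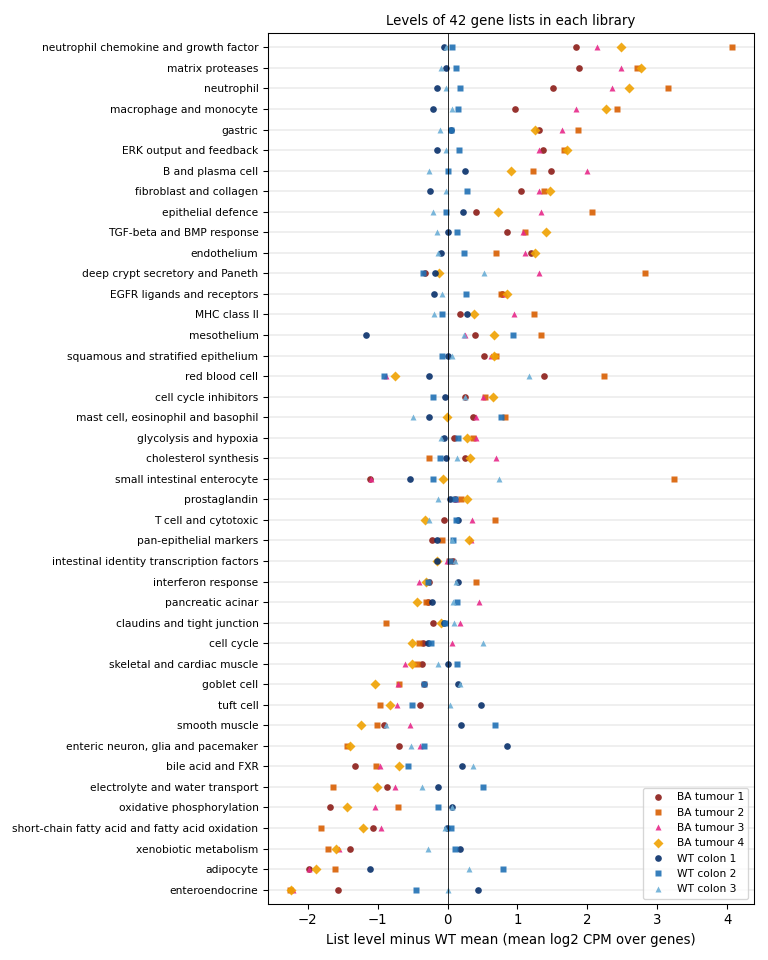
Level of each of 42 gene lists in each library, as the mean log2 CPM over its genes minus the mean of the 3 WT tissues. Tumours lie to the right for neutrophil chemokines, matrix proteases and neutrophil genes and to the left for enteroendocrine, adipocyte and detoxification genes, and tumour 2 lies apart for small intestinal enterocyte and Paneth genes.

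Spread in most genes was larger among these 4 tumours than among the 3 WT tissues. The SD of log2 CPM was larger among tumours in 13342 of 19188 genes (69.5%), with a median SD of 0.43 against 0.29. Log2 CPM correlated at 0.978 between tumours 3 and 4 and at 0.96 to 0.977 between WT tissues. Tumour 1 was at 0.954 and 0.96 with tumours 3 and 4, and pairs with tumour 2 were at 0.897 to 0.931. An SD over 4 libraries is not fully comparable with one over 3. The tumours were also mixed in Y-linked reads and the WT tissues were not, and the SD without tumour 2 was not tested. Counting genes more than 4-fold from the mean of the other tumours, tumour 2 had 1071, tumour 1 had 496, tumour 3 had 238 and tumour 4 had 170, and among WT tissues WT 2 had 323, WT 3 had 177 and WT 1 had 159. In the mean log2 CPM of the lists, tumour 1 was the lowest tumour for neutrophil chemokines, matrix proteases, neutrophil genes and macrophage genes. Tumours 1 to 4 were at 0.45, 2.67, 0.75 and 1.09 for the chemokines, 4.74, 5.57, 5.33 and 5.62 for the proteases, 0.28, 1.92, 1.12 and 1.37 for neutrophil genes and 3.87, 5.32, 4.74 and 5.16 for macrophage genes. WT tissue was at -1.44, -1.32 and -1.41, 2.83, 2.98 and 2.76, -1.38, -1.06 and -1.26 and 2.69, 3.04 and 2.96, below every tumour in all 4 lists. Tumour 1 was also the highest for enteroendocrine genes, at 1.39, 0.71, 0.75 and 0.72 in tumours 1 to 4 and 3.4, 2.51 and 2.97 in WT tissue.

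The genes with the widest spread were products of the small intestine and held most of their reads in tumour 2. Fabp1, a fatty acid carrier, was at 0.166, 205, 0 and 6.8 in tumours 1 to 4 and 0.775, 0.228 and 2.27 in WT tissue. Apoa4 and Apoa1, lipoproteins of absorbing enterocytes, were likewise highest in tumour 2. In tumours 1 to 4, Apoa4 was at 0.415, 312, 0.0566 and 10.2, Apoa1 at 0.29, 377, 0.622 and 10.1 and the lactase Lct at 0.373, 166, 0.17 and 1.02. The Paneth cell defensin Defa24 was at 0.332, 156, 51.5 and 0.825 in the tumours and 0, 0.228 and 2.78 in WT tissue, so tumour 3 shared this signal with tumour 2 at a lower level, as it did for Lyz1, the lysozyme of Paneth cells, at 3.65, 136, 63.9 and 4.28 in the tumours and 7.4, 5.7 and 10.3 in WT tissue. Gata4, the factor of the proximal small intestine, was named after its values were seen and stood at 0, 14.8, 0 and 0.118 in the tumours and 0.0969, 0.399 and 0.325 in WT tissue. Fabp1, Apoa4, Apoa1, Lct, Defa24 and Lyz1 were not called and Gata4 was too low to be tested. Shared words made up 63.6% of Apoa4, 48.2% of Defa24 and 28.5% of Lyz1. Of 26 small intestinal enterocyte genes 0 were higher and 1, Fabp2, was lower (log2 fold change -1.69, adjusted p = 0.0206). The count of lower genes was 0 without tumour 4 or WT 1 or WT 2 or WT 3 and 7 without tumour 2 and that of higher genes 1 without tumour 1. The part of these reads in the other values of tumour 2 was not tested.

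A second kind of spread concerned 3 related predicted genes and the sex-linked genes. Gm10800 was at 12.7, 3899.6, 3.9 and 5.42 in the tumours and 173, 478 and 308 in WT tissue. Gm21738 was at 1.16, 502, 0.283 and 0.629 in the tumours and 22.3, 70.1 and 39.9 in WT tissue. Gm10801 was at 0.373, 188, 0.339 and 0.236 in the tumours and 9.69, 31.9 and 19.1 in WT tissue. Tumour 2 lay above WT tissue and tumours 1, 3 and 4 far below it in all 3 genes, which share 38.2%, 39.6% and 31.8% of their words with other genes. Mme, the brush border peptidase neprilysin, was at 0.207, 56.9, 0 and 1.22. Ddx3y and Eif2s3y, on the Y chromosome, had the order of the Y-linked sums, with Ddx3y at 0.124, 36.9, 66.9 and 77.6 in the tumours and Xist at 1374, 49.7, 2.21 and 2.04.

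**Figure D5:**
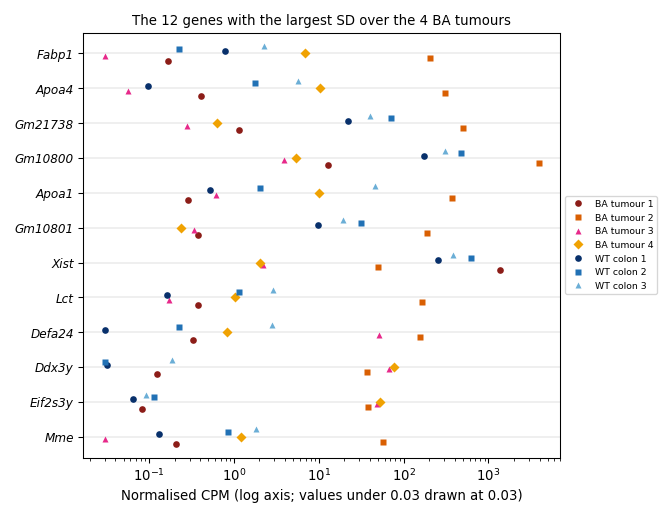
Normalised CPM on a log axis for the 12 genes with the largest SD of log2 CPM over the 4 tumours, with 1 point per library. Tumour 2 has the highest point for the small intestinal genes and for Gm10800, Gm10801 and Gm21738, and tumour 1 lies apart from the other tumours, towards WT tissue, for Xist, Ddx3y and Eif2s3y.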

How the data were processed

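RNA from whole tumours and whole proximal colon was sequenced as paired reads of 36 cycles. Per the study's methods and the submitters' processing notes, the authors checked reads with FastQC 0.11.8, trimmed them with Trim Galore 0.6.4, aligned them to GRCm38 with HISAT2 2.1.0 and counted them per gene with featureCounts 1.6.4, and they deposited raw counts. The strand setting and the handling of reads with several matches are not given in the sources used here, so overlapping and near-identical genes are uncertain. The share of 36-base words held by other genes is printed for some of them. It passed 10% in 46 of the named genes, not all marked above. Among those not marked were Car1 at 18.0%, Nags at 14.1%, Krt14 at 23.9%, Tff1 at 22.1% and Ckm at 12.3%.

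The 4 tumour and 3 WT columns were matched to samples by name, and 0 columns of the count matrix lacked a sample of the series. Symbols from GENCODE vM21 matched 55154 of 55421 gene identifiers. The filterByExpr function chose the genes to test, TMM set the scaling, and the groups were compared with the two-sided quasi-likelihood test of edgeR 4.0.16 in R 4.3.3, with Benjamini-Hochberg adjustment over all genes tested and a threshold of 0.05. Log2 levels used a prior count of 2. Counting intervals of pooled ratios are exact Poisson intervals at 95% for the lower group's count, with the other group's level held fixed, and they and the floor of 3 counts cover counting error only. The fits were tested on simulated counts.

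The groups, 42 gene lists and the genes named were chosen with earlier results of these data known. Named were the 15 genes per direction with the largest change among those called in the full fit and in all 7 fits without 1 library, without overlap, with a mean log2 CPM reaching 3 and without a Gm, Rik or accession name. Up to 6 called and 2 uncalled genes per list, the 12 genes of widest spread among tumours, and Tgfbr1, Braf, Xist and Y-linked genes were named too. Chga, Cyp2c55, Gata4, Ccnb2, Adipoq, Cfd, Tff1, Gkn1, Csf3 and Krt5 fell outside this rule and were chosen after their values were seen, and some genes that met the rule are not reported here. Promoters came from the RefSeq table of GRCm38.p6. Alternatives were RLE and library total scaling, no low-count filter, DESeq2 1.42.0, limma 3.58.1 with voom, a replicate block, a term for Y-linked reads and each library left out.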

Additional observations from a re-analysis of the deposited data

Results flagged for a closer look

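In 25 of 295 genes and list levels examined, the gap from 1 tumour to the nearest other tumour took up more of the range of the 4 tumours than Dixon's critical value allows, with gaps measured on log2 CPM. Chance alone gives such a gap in about 1 in 20 unselected values. Here the items included the 12 genes picked for their spread over these tumours and the Y-linked genes, and many vary together. The share flagged therefore cannot be set against that rate. Groups of 3 WT tissues were not examined. Of these, 9 were in tumour 2, 8 in tumour 1, 5 in tumour 4 and 3 in tumour 3. Gene values in the next sentences are normalised CPM, on which the gaps are of another size.

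Tumour 2 lay above the other tumours for Slc30a10 at 5.456, Fabp2 at 397.7, S100b at 1.07, Gm21738 at 501.9, Gm10800 at 3900.0 and Gm10801 at 187.7. Tumour 2 lay below the others for Acadvl at 32.84, Hnf4a at 257 and Plau at 10.8. Tumour 1 lay above the other tumours for Sycn at 8.539 and Gstm3 at 4.933. The mean log2 CPM level of the enteroendocrine list in tumour 1 was 1.393, above the other tumours. Tumour 1 lay below the others for Tgm3 at 0.04145, Ddx3y at 0.1244, Eif2s3y at 0.0829, Kdm5d at 0.0829 and Uty at 0.1658. Tumour 4 lay above the other tumours for Egfr at 182.5. Tumour 4 lay below the others for Sult1a1 at 13.95, Ces1g at 4.755, Tyms at 15.56 and Pax5 at 2.948. Tumour 3 lay above the other tumours for Hadh at 134.2 and Acta2 at 625.3. Tumour 3 lay below the others for Fosl1 at 0.5658.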

How the results depend on the processing

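Against 1431 higher and 1096 lower genes, RLE scaling gave 1438 and 1074, library total scaling 1332 and 881, limma voom 1416 and 1192, no low-count filter 1831 and 1482 of 38881 genes, and DESeq2 2141 and 1657, its adjusted p being NA for 166 genes. Every called gene kept its direction in these fits. With the Y-linked term the counts were 147 and 21, 87.5% of calls being higher against 56.6%, and 160 of its calls were shared with the fit without it. Leaving out each library in turn gave 395 to 1800 higher and 301 to 1841 lower genes, lowest without WT 1 and highest without tumour 2. Higher genes made 49.4% of calls without tumour 2 and 64.6% without tumour 4. Depth limits genes near the floor of 3 counts. The cause of these shifts was not tested.

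Tumours and WT tissues share replicate numbers, but the labels tie the numbers to no animal, litter or day. Deviations from the group means correlated at -0.20, -0.049 and 0.016 for the same-numbered pairs 1, 2 and 3, and none of tumours 1 to 3 correlated best with its own number, so the numbers were not taken as a pairing. With the replicate block, to which tumour 4 adds nothing since it has no partner, the counts were 623 and 308, 895 of them shared with the fit without it. The log2 fold change changed sign with the replicate block for Fabp1 at -0.11, Gm21738 at -3.32, Gm10800 at -3.19, Apoa1 at -0.47, Gm10801 at -2.96, Reg4 at 0.43 and Jchain at 0.21.

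Other sign changes concerned log2 fold changes of named genes, of which Eif2s3y alone had been called, and the cause was not tested. With the Y-linked term these were Fabp1 at -2.69, Apoa4 at -2.57, Gm21738 at -5.24, Gm10800 at -4.65, Apoa1 at -5.76, Gm10801 at -5.73, Xist at 1.70, Lct at -1.85, Defa24 at -1.55, Eif2s3y at -0.057, Mme at -2.10, Slc5a8 at 0.0076, Muc2 at 0.51, Lyz1 at -1.10, Mki67 at 0.12, C1qa at -0.027 and H2-Aa at -0.48. They were Gm21738 at -4.26, Gm10800 at -3.63 and Gm10801 at -4.14 by limma voom and Xist at 0.045 under library total scaling. Leaving out 1 library moved them over -5.95 to 1.99 for Gm21738, -5.44 to 2.04 for Gm10800, -2.13 to 6.28 for Apoa1, -5.99 to 1.68 for Gm10801, -4.58 to 0.18 for Xist, -1.37 to 6.09 for Lct, -0.89 to 4.95 for Mme, -2.59 to 0.98 for Aqp8, -0.45 to 0.28 for Slc5a8, -0.28 to 0.037 for Hnf4a, -2.49 to 2.34 for Reg4, -0.57 to 0.047 for Mki67, -0.52 to 0.049 for Top2a, -0.075 to 0.46 for Cdkn1a, -0.10 to 0.33 for Pdgfra, -0.35 to 0.32 for Jchain and -0.030 to 0.60 for H2-Aa.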
